A study of Mus musculus with 12 samples.

Results

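The collagen genes are the rows of the deposited count table whose symbol consists of Col, a type number, the letter a and a chain number, such as Col1a1. The rule found 43 genes among 33100 gene rows and used no measured value. Their RNA was measured by bulk sequencing of mouse cells that were sorted from tumor or spleen and that the labels call natural killer (NK) cells, lymphocytes that kill tumor cells. The samples form 4 groups of 3 libraries: tumor cKO and spleen cKO, from mice with a conditional knockout of 1 gene, and tumor WT and spleen WT, from control mice. The labels do not state the age of the mice, the kind of tumor or the cells in which the deletion acts. Nor do they say that each library is a mouse of its own, and each p-value here therefore reflects only how far these libraries scatter, which may be technical.

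Collagens are secreted or membrane-bound proteins in which chains wind into a triple helix, and they form much of the scaffold between cells. Fibrillar collagens (types I, II, III, V, XI, XXIV and XXVII) build the fibres of connective tissue, type IV forms the network of basement membranes, and type VI forms beaded filaments around cells. Type VII anchors epithelia to the tissue beneath, and the fibril-associated types (IX, XII, XIV, XVI, XIX, XX and XXII, called FACIT) sit on or beside fibres. Types XV and XVIII (multiplexins) lie in basement membrane zones, types XIII, XVII, XXIII and XXV span the cell membrane, and types VIII and X form short-chain networks. In tumors, collagens are known mainly as products of fibroblasts, pericytes and endothelial cells. NK cells and other leukocytes carry receptors that bind them, such as the integrin of Itga1 and Itgb1 and the inhibitory receptor Lair1.

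The 43 genes comprised 11 fibrillar, 6 basement membrane, 6 beaded filament, 8 FACIT, 4 transmembrane, 3 short-chain network and 2 multiplexin genes, the anchoring fibril gene Col7a1, and 2 others (Col26a1 and Col28a1). Of these, 27 passed the filter on low counts and were tested, among 16831 genes tested in all, and 16 were not. The 27 were 8 fibrillar, 7 FACIT, 5 beaded filament, 2 basement membrane and 2 multiplexin genes, with 1 each from the anchoring fibril, short-chain network and transmembrane classes. Levels are given as CPM, counts scaled to a common library total after correction for composition, in the order of replicates 1, 2 and 3 unless a range is given. Levels of different genes, or of lists of different genes, are compared only as RPKM, which scales reads to gene length and library total. Fold changes are on the log2 scale with the SE of the fit, and a gene was called at an adjusted p under 0.05 over all genes tested.

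Library totals ranged from 9542329 to 37118494 counts. The highest total was that of tumor WT replicate 2, against 18967908 and 18518070 counts in tumor WT replicates 1 and 3. The 8 NK cell markers summed to 37.1 to 54.8 CPM in tumor cKO, against 51.0 to 174 CPM in tumor WT, and to 1169 to 1440 CPM in spleen cKO, against 1129 to 1485 CPM in spleen WT. The 9 macrophage markers summed to 745 to 2003 CPM in tumor cKO, against 5240 to 12500 CPM in tumor WT, and the 5 B cell markers to 1544 to 1855 CPM in spleen cKO, against 1741 to 1952 CPM in spleen WT. In RPKM the macrophage markers summed to 542 to 7464 in the 6 tumor libraries and the NK cell markers to 19.5 to 83.6, so that macrophage markers exceeded those of the labelled cell type in every tumor library. In the 6 spleen libraries the 5 B cell markers summed to 544.5 to 675 RPKM and the 8 NK cell markers to 652 to 933 RPKM. As means per marker these were 108.9 to 135.1 RPKM for B cell and 81.54 to 116.7 RPKM for NK cell markers. The mean per marker was higher for B cell markers in every spleen library except spleen cKO replicate 2. Tumor WT replicate 2 stood apart from the other 5 tumor libraries in collagen reads, as the next paragraph shows, and values without it stand beside the results in tumor that moved when it was left out.

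Collagen reads were a small share of every library and the largest share in tumor WT replicate 2. They made up 0.0496%, 0.036% and 0.02004% of counts in tumor cKO, against 0.05181%, 0.4394% and 0.0239% in tumor WT. In spleen they made up 0.008478%, 0.009998% and 0.008318% of counts in spleen cKO, against 0.009687%, 0.008317% and 0.008517% in spleen WT. The 95% Wilson interval was 0.4373% to 0.4415% for tumor WT replicate 2, 0.01949% to 0.0206% for tumor cKO replicate 3, the lowest tumor library, and 0.009383% to 0.01065% for spleen cKO replicate 2, the highest spleen library. These intervals take each count as a separate read, so they understate counting error if both mates were counted, and they cover no other variation. The 6 tumor libraries were all above the 6 spleen libraries, while cKO and WT overlapped in both tissues. In bulk samples, fewer cells of a type and less RNA per cell cannot be told apart.

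**Figure D1:**
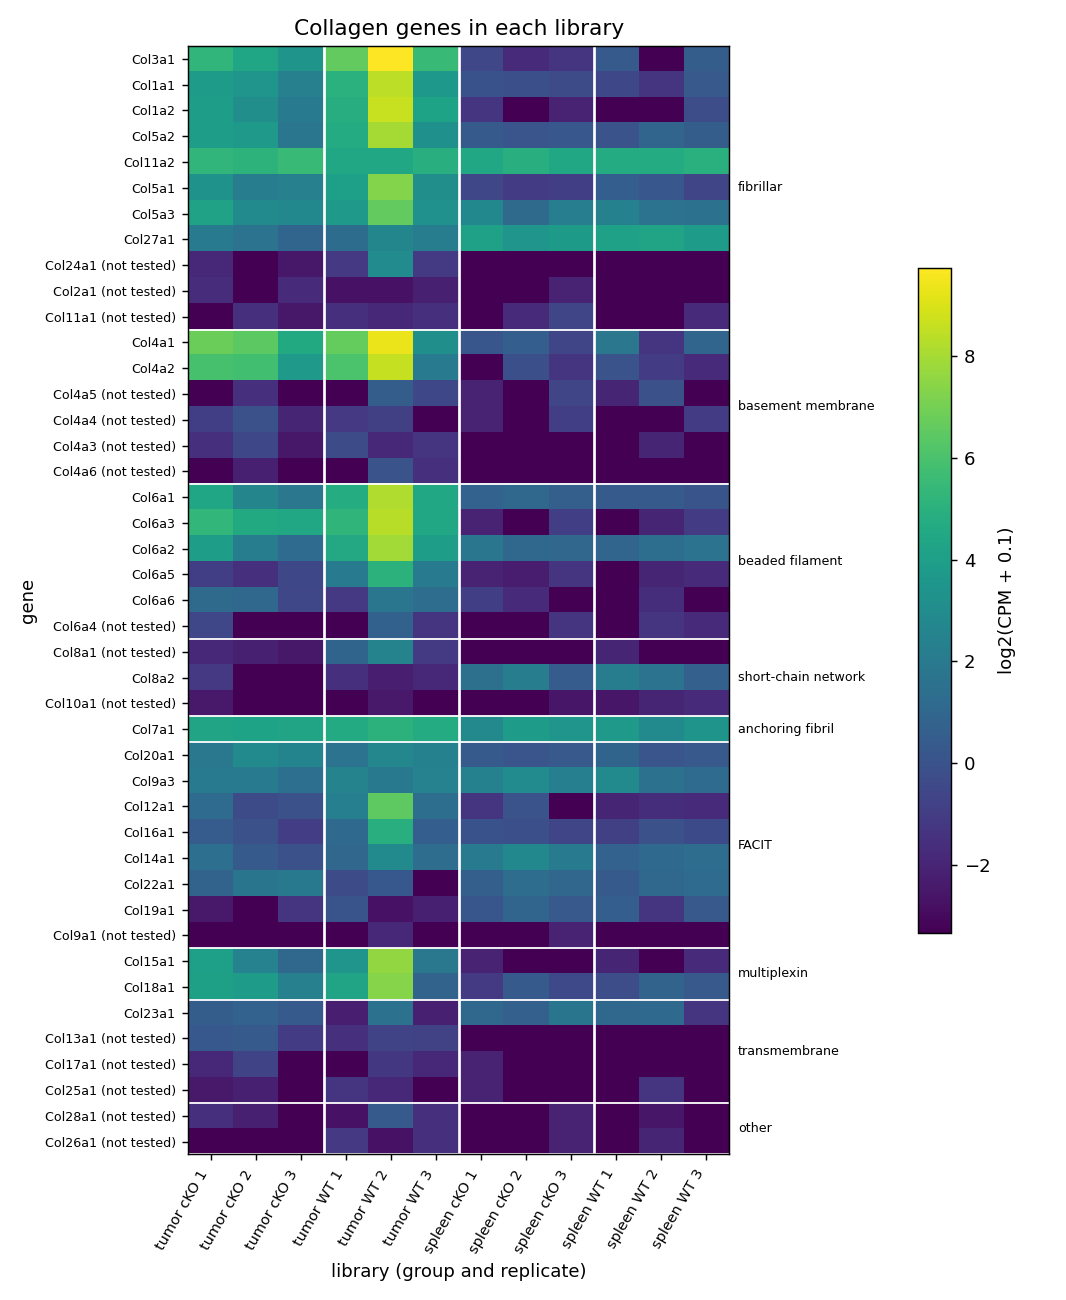
Level of each of the 43 collagen genes (rows, grouped by class) in each of the 12 libraries (columns), as log2(CPM + 0.1); genes that did not pass the filter on low counts are marked as not tested. Most fibrillar, basement membrane and beaded filament genes are brighter in tumor than in spleen libraries and brightest in tumor WT replicate 2, while Col11a2 lies between 21.7 and 45.5 CPM in all 12 libraries and Col27a1 and Col8a2 are brighter in spleen.

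Summed over all members, collagen stood at 480, 341 and 193 CPM in tumor cKO, against 571, 4601 and 267 CPM in tumor WT. Tumor WT replicate 2 held 8.05 times the sum of the next tumor library. Of the 43 genes, 26 had their highest level of all 12 libraries there. Among the 27 genes tested, 16 exceeded the highest other tumor library by more than 3 times in it, with a median ratio of 5.88 and a range of 0.0606 to 18.3. The same ratio was above 3 for 2.57% of all genes tested, whose median ratio was 0.721.

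Some marker lists of other cell types also had their highest sum in tumor WT replicate 2, and others did not. The 8 pericyte and smooth muscle markers summed to 20.6, 20.8 and 7.55 CPM in tumor cKO, against 35.5, 390 and 39.6 CPM in tumor WT, and to 1.85 to 6.24 CPM in spleen. The 10 fibroblast markers summed to 183, 163 and 154 CPM in tumor cKO, against 348, 523 and 385 CPM in tumor WT, and to 0 to 1.61 CPM in spleen. Most of the fibroblast sum was Pdpn and Thbs2, and the defining fibroblast gene Pdgfra was at 2.18, 1.20 and 1.12 CPM in tumor cKO, against 1.05, 7.33 and 1.21 CPM in tumor WT. The 9 endothelial markers summed to 90.1, 105 and 65.0 CPM in tumor cKO, against 158, 312 and 132 CPM in tumor WT; in spleen they summed to 142 to 179 CPM, mostly from Pecam1, which leukocytes also express. The 9 macrophage markers summed to 2003, 1846 and 745 CPM in tumor cKO, against 5240, 12500 and 6534 CPM in tumor WT. By contrast, NK cell markers summed to 54.8, 51.5 and 37.1 CPM in tumor cKO, against 174, 51.0 and 142 CPM in tumor WT. T cell markers summed to 373, 440 and 551.5 CPM in tumor cKO, against 247.5, 197 and 226 CPM in tumor WT. Epithelial, melanocyte and B cell sums were not highest in tumor WT replicate 2 either. The part of these cell types in the collagen levels was not tested.

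**Figure D2:**
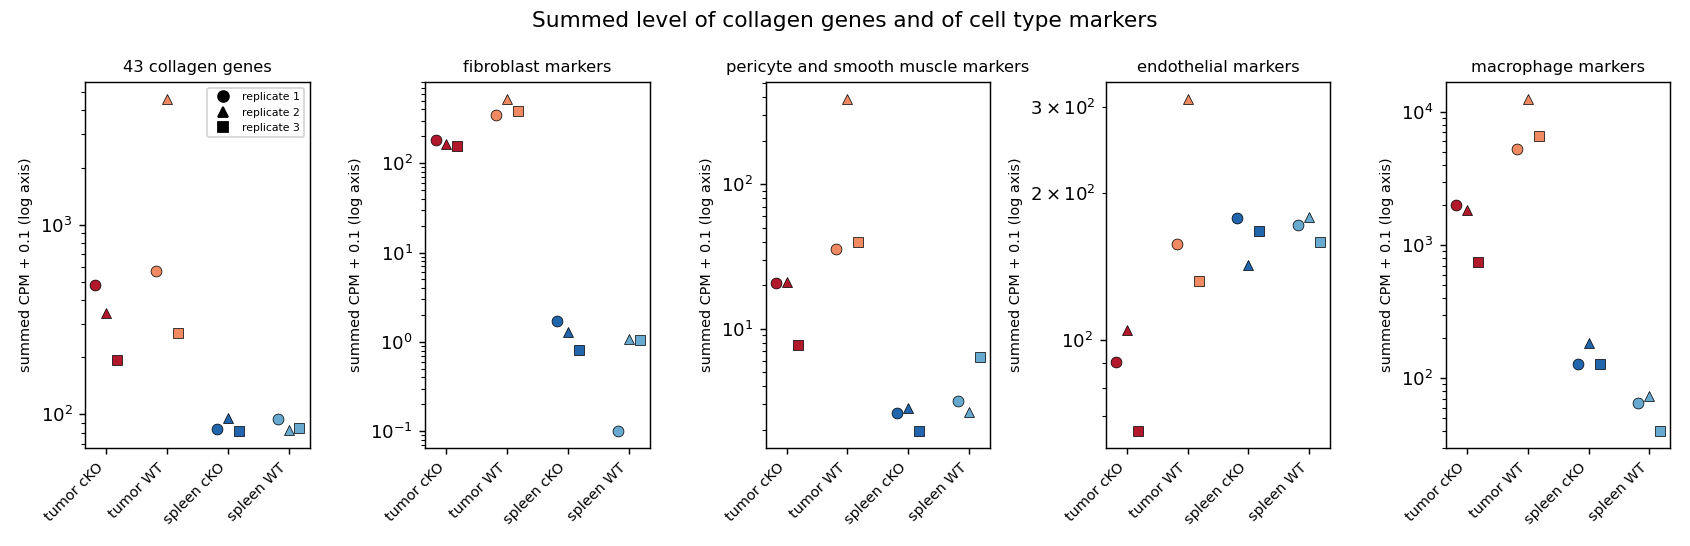
Summed CPM + 0.1 (log axis) of the 43 collagen genes and of the fibroblast, pericyte and smooth muscle, endothelial and macrophage markers, 1 point per library, in tumor cKO, tumor WT, spleen cKO and spleen WT. Tumor WT replicate 2 (triangle) is the highest point of every panel, and lies furthest above the others for collagen, at 4601 CPM, and for pericyte and smooth muscle markers, at 390 CPM.

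The leading collagens differed between tissues. In all 6 spleen libraries Col11a2 had the highest RPKM of the family, 3.28 to 4.62, followed by Col27a1, Col9a3 or Col7a1. In tumor, the basement membrane gene Col4a1 led in tumor cKO replicates 1 and 2, at 15.4 and 12.1 RPKM, and in tumor WT replicates 1 and 2, at 12.1 and 84.0 RPKM. Col11a2 led in tumor cKO replicate 3, at 6.93 RPKM, and Col6a1 in tumor WT replicate 3, at 4.44 RPKM. Basement membrane genes made up 38.0%, 43.5% and 20.8% of collagen RPKM in tumor cKO, against 31.6%, 25.2% and 5.76% in tumor WT, and 1.52% to 4.74% in spleen. Fibrillar genes made up 29.7%, 28.0% and 43.3% in tumor cKO, against 36.7%, 40.6% and 46.3% in tumor WT. Both shares overlapped between the genotypes in tumor.

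The comparison of tumor with spleen asked how collagen RNA differed between the 2 sites in each genotype. In cKO, 18 of 27 genes were called, 14 higher and 4 lower in tumor, where 60.5% of all genes tested were called, 31.7% higher and 28.8% lower. In WT, 21 of 27 were called, 19 higher and 2 lower, where 62% of all genes tested were called, 33.9% higher and 28.1% lower. The median log2 fold change of the 27 genes was 1.82 in cKO and 5.25 in WT, beside 0.07 and 0.12 over all genes tested. Under scaling without a composition factor the median over all genes in WT was -0.02. Of the genes called higher, 13 were called in both genotypes, which is 13 of 14 in cKO and 13 of 19 in WT. These comparisons share no library, but they come from the same fit, with the same filter and estimate of the spread. For example, Col6a3, Col6a5, Col6a6 and Col15a1 were at most at 0.426, 0.284, 0.440 and 0.189 CPM in spleen. Only tumor levels carried such genes through that filter, so their being tested already favoured a higher value in tumor. The share of all genes called higher in both genotypes is not given here. Tissues did not overlap for 16 genes higher and 5 lower in cKO, beside 36.6% and 33.4% of all genes tested, and for 19 higher and 3 lower in WT, beside 36.5% and 30.9%. With tumor WT replicate 2 left out, 28 were tested, and 18 were called higher and 4 lower in cKO, beside 63.2% of all genes called, 33.5% higher and 29.7% lower. In WT they were then 19 higher and 4 lower, beside 59.9%, 32.3% and 27.6%. The median of the members was then 2.05 in cKO and 3.40 in WT, beside 0.08 over all genes tested in either genotype. The count in cKO was 10 when tumor cKO replicate 1 or spleen cKO replicate 2 was left out, and 12 when this was tumor cKO replicate 2 or spleen cKO replicate 1 or 3.

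Among fibrillar genes, Col3a1, Col1a1, Col1a2, Col5a1 and Col5a2 were higher in tumor in both genotypes. Col3a1, the chain of type III collagen, was at 38.2, 21.0 and 10.7 CPM in tumor cKO, against 0.587, 0.201 and 0.284 CPM in spleen cKO (5.95 ± 1.53, edgeR adjusted p = 0.00731). It was at 97.5, 846 and 44.1 CPM in tumor WT, against 1.21, 0 and 1.32 CPM in spleen WT (8.64 ± 1.45, edgeR adjusted p = 0.000551). Every tumor library was above every spleen library. Col1a1, one of the chains of type I collagen, differed by 3.64 ± 1.34 in cKO and 7.62 ± 1.43 in WT, and Col1a2, its partner, by 5.85 ± 1.88 in cKO and 9.37 ± 1.75 in WT. Without tumor WT replicate 2 the differences in WT were 6.43 for Col3a1, 5.05 for Col1a1, 6.69 for Col1a2, 3.62 for Col5a1 and 3.71 for Col5a2, and each was still called; with it Col5a1 differed by 5.90 ± 1.14 and Col5a2 by 6.14 ± 1.31. In cKO the calls of Col1a1 and Col5a2 were lost when any tumor cKO or spleen cKO library was left out, that of Col1a1 also without spleen WT replicate 1 and that of Col5a2 also without any single spleen WT library. The calls of Col1a2 and Col5a1 in cKO were lost without any single spleen cKO library and without tumor cKO replicate 1. Col5a3 was called in WT (3.43 ± 0.89, edgeR adjusted p = 0.0067) and missed the threshold in cKO (1.23 ± 0.84, edgeR adjusted p = 0.229). Without tumor WT replicate 2 it was called in both, at 1.25 in cKO and 1.61 in WT.

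Of the type IV genes, the 2 that were tested, Col4a1 and Col4a2, were higher in tumor in both genotypes. Of the 5 type VI genes tested, 2 were called higher in cKO (Col6a3 and Col6a6) and 5 in WT. Col4a1 was at 112, 85.9 and 24.2 CPM in tumor cKO, against 1.03, 1.40 and 0.568 CPM in spleen cKO (6.24 ± 1.60, edgeR adjusted p = 0.0073), and at 99.4, 656 and 8.80 CPM in tumor WT, against 3.49, 0.301 and 1.79 CPM in spleen WT (7.09 ± 1.56, edgeR adjusted p = 0.00295). Col6a3, the long chain of type VI collagen, stood at 21.9 to 319 CPM in tumor and 0 to 0.426 CPM in spleen and differed by 7.05 ± 1.42 in cKO and 9.53 ± 1.47 in WT. The multiplexins Col15a1 (7.05 ± 2.43 in cKO, 9.25 ± 2.10 in WT) and Col18a1 (4.09 ± 1.49 in cKO, 5.71 ± 1.45 in WT) were called in both genotypes. Without tumor WT replicate 2 the differences in WT were 4.87 for Col4a1, 7.43 for Col6a3, 6.01 for Col15a1 and 3.19 for Col18a1, and each was still called. In cKO the call of Col18a1 was lost without any single tumor cKO or spleen cKO library, and that of Col15a1 without any single spleen cKO library or tumor cKO replicate 1. Also called in both genotypes were Col4a2, Col6a6, the anchoring fibril gene Col7a1 (0.83 ± 0.26 in cKO, 1.46 ± 0.27 in WT) and the fibril-associated Col20a1, which was at 3.02 to 7.21 CPM in tumor and 0.979 to 1.75 CPM in spleen. In cKO the call of Col6a6 was lost without tumor cKO replicate 1 or 2 or spleen cKO replicate 2 or 3, and that of Col7a1 without spleen cKO replicate 1. The remaining genes called higher in WT were Col6a1, Col6a2, Col6a5, Col12a1 and Col16a1, of which Col16a1 was not called without tumor WT replicate 2.

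Col27a1 and Col8a2 were lower in tumor in both genotypes. Col27a1, a fibrillar collagen known from cartilage, was at 4.10, 3.01 and 1.82 CPM in tumor cKO, against 17.6, 10.9 and 13.9 CPM in spleen cKO (-2.25 ± 0.37, edgeR adjusted p = 0.000167). It was at 2.38, 6.32 and 4.40 CPM in tumor WT, against 17.8, 19.5 and 14.6 CPM in spleen WT (-1.97 ± 0.36, edgeR adjusted p = 0.000382). Col8a2, a short-chain collagen of the corneal endothelium, was at 0 to 0.342 CPM in tumor and 1.28 to 4.41 CPM in spleen, a difference of -4.47 ± 0.99 in cKO and -4.09 ± 0.96 in WT. Neither gene overlapped between the tissues. The fibril-associated genes Col14a1 (-1.63 ± 0.57, edgeR adjusted p = 0.0247) and Col19a1 (-3.15 ± 1.10, edgeR adjusted p = 0.0248) were also lower in tumor cKO than in spleen cKO. Leaving out replicate 2 of tumor cKO or of spleen cKO ended both calls, leaving out tumor cKO replicate 3 that of Col14a1, and leaving out tumor cKO replicate 1 that of Col19a1. Only spleen levels carried Col8a2 and Col19a1 through the filter on low counts. Their being tested therefore already favoured a lower value in tumor. The part of the NK, B cell and macrophage markers given above in these values was not tested.

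The comparison of tumor cKO with tumor WT asked how collagen RNA in the tumor samples differed with the knockout. Of 27 genes, 12 were called, 10 lower and 2 higher in tumor cKO, where 38% of all genes tested were called, 21.6% lower and 16.4% higher. The median log2 fold change of the 27 was -1.87, beside -0.12 over all genes tested, and 23 of 27 were negative. The 10 lower genes were the fibrillar Col1a1, Col1a2, Col3a1, Col5a1 and Col5a2, the beaded filament Col6a1, Col6a2 and Col6a5, and the fibril-associated Col12a1 and Col16a1. The 2 higher genes were Col11a2 and Col22a1. Scaling without a composition factor moved the median over all genes to 0.06, and then 9 were called lower and 2 higher.

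Most of the lower calls were lost when tumor WT replicate 2 was left out. Then 28 members were tested, 1 was called lower (Col6a5) and 3 higher (Col11a2, Col22a1 and Col23a1), beside 38.8% of all genes called, 21.2% lower and 17.6% higher, and the median of the members was -0.42. The count was also smaller when tumor cKO replicate 2 was left out, with 3 lower and 1 higher, and with tumor cKO replicate 3 left out, at 2 lower and 1 higher. The calls of Col1a2, Col3a1, Col5a1, Col6a1, Col6a2 and Col12a1 were lost in either case, that of Col16a1 without tumor cKO replicate 3, and that of Col1a1 without any single tumor cKO library. Of the 10 lower genes, 7 did not overlap between the groups. In all, 8 of 27 genes were lower in every tumor cKO library than in every tumor WT library and 2 were higher, beside 27.3% and 23% of all genes tested. Col6a5 and Col11a2 were called whichever of the 12 libraries was left out, but Col6a5 passed the filter on low counts through its tumor WT levels alone.

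**Figure D3:**
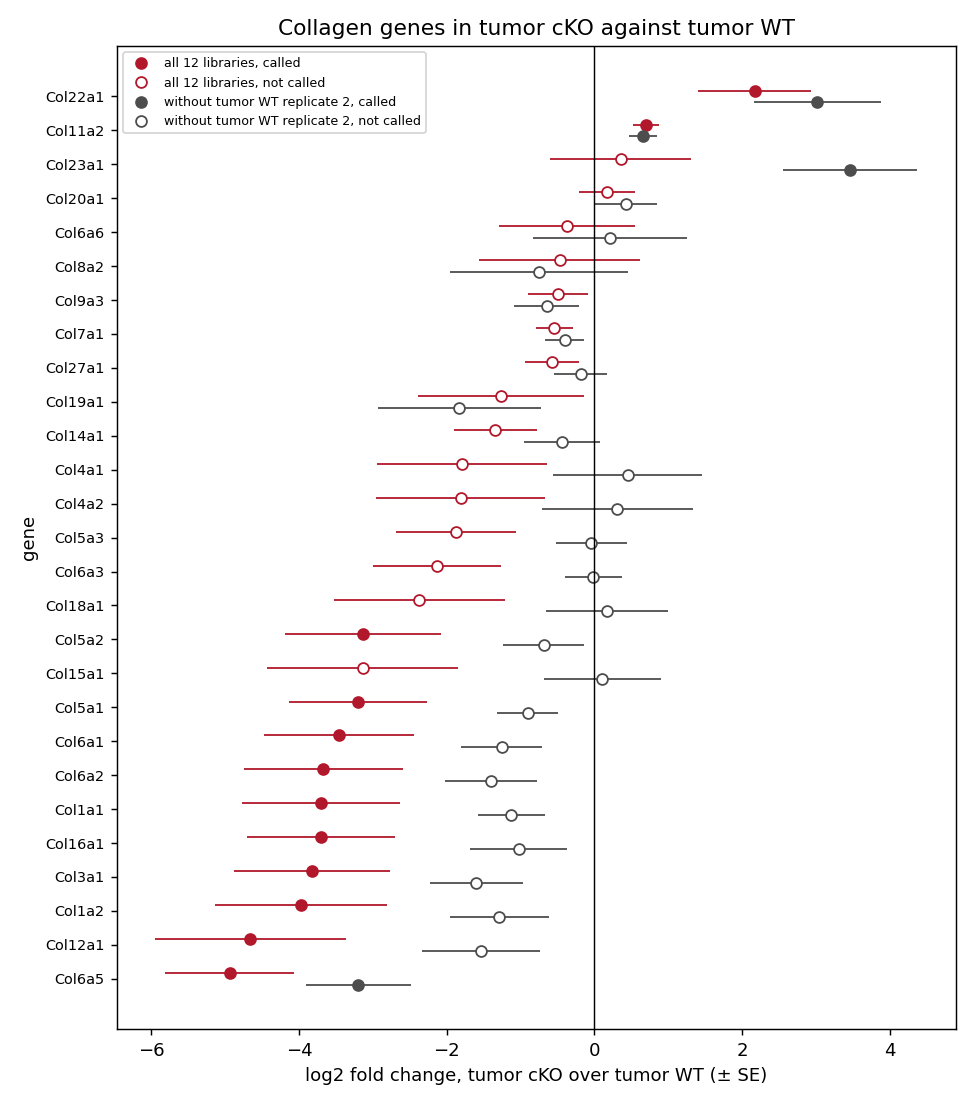
Log2 fold change ± SE of tumor cKO over tumor WT for the 27 collagen genes tested, with all 12 libraries (red) and without tumor WT replicate 2 (grey); filled points were called and open points were not. With all libraries 10 genes are called lower and 2 higher; without tumor WT replicate 2 only Col6a5 of the lower genes is still called, while Col4a1, Col4a2, Col15a1, Col18a1 and Col6a6 cross 0.

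The fibrillar chains of types I and III were each highest in tumor WT replicate 2 and lowest in tumor cKO replicate 3. Col3a1 was at 38.2, 21.0 and 10.7 CPM in tumor cKO, against 97.5, 846 and 44.1 CPM in tumor WT, which was lower in all 3 tumor cKO libraries (-3.82 ± 1.06, edgeR adjusted p = 0.0181). Col1a1 was at 14.1, 11.1 and 4.96 CPM in tumor cKO, against 31.6, 347 and 12.3 CPM in tumor WT (-3.70 ± 1.07, edgeR adjusted p = 0.022), and tumor cKO replicate 1 lay above tumor WT replicate 3. Col1a2 was at 16.1, 8.54 and 4.03 CPM in tumor cKO, against 28.1, 402 and 18.7 CPM in tumor WT, without overlap (-3.98 ± 1.16, edgeR adjusted p = 0.0232). Leaving out tumor WT replicate 2 gave log2 differences of -1.60 for Col3a1, -1.12 for Col1a1 and -1.29 for Col1a2, and none was called.

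The promoters of Col3a1 and Col1a2 are shown because these chains of co-assembled fibres ranked the 6 tumor libraries in the same order. Each window, from RefSeq on GRCm38.p6, runs from 250 bases before to 50 bases after the RefSeq start, is written 5′ to 3′ on the gene's strand, and shows 3 motifs in capitals. They are the motif TATAAA, read as TTTATA on the other strand, the motif CCAAT, read as ATTGG on the other strand, and the motif GGGCGG, read as CCGCCC on the other strand. The Col3a1 window lies at chr1:45311288-45311587, plus strand, and the Col1a2 window at chr6:4505368-4505667, plus strand.
Col3a1: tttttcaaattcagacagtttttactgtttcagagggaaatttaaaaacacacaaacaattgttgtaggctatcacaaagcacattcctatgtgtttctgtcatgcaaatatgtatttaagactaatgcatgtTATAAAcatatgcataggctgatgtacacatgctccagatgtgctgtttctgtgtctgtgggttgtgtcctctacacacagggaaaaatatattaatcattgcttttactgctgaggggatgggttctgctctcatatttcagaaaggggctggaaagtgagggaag
Col1a2: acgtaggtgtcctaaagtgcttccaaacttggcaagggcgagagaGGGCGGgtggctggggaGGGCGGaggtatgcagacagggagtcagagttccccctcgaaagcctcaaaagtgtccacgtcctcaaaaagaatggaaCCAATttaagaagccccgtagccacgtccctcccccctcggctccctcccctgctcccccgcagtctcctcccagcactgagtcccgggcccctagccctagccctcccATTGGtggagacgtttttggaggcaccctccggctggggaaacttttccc
The Col3a1 window held 1 TATAAA and neither of the other motifs, and the Col1a2 window 2 CCAAT and 2 GGGCGG. The RefSeq start of Col1a2, 4505618, lies downstream of the start listed with the counts, 4504814. RefSeq windows were matched for 34 of the 43 genes, 37 windows in all. TATAAA was in 13.5% of the collagen windows and 13.6% of all 32851 windows, CCAAT in 35.1% and 37.4%, and GGGCGG in 59.5% and 35.7%. A match describes the letters and not a binding site, and on these windows CCAAT read on the opposite strand can share bases with GGGCGG.

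The type V chains, which sit in the core of type I fibres, followed in part. Col5a1 was at 10.4, 4.33 and 5.04 CPM in tumor cKO, against 16.2, 158 and 8.68 CPM in tumor WT (-3.21 ± 0.94, edgeR adjusted p = 0.0217). Col5a2 was at 16.1, 13.3 and 3.41 CPM in tumor cKO, against 25.9, 251 and 9.28 CPM in tumor WT (-3.13 ± 1.06, edgeR adjusted p = 0.0415), and this call was lost when any library other than tumor WT replicate 1 or 3 was left out. Col5a3 was at 18.3, 7.33 and 6.82 CPM in tumor cKO, against 12.8, 96.0 and 9.58 CPM in tumor WT, and it did not pass the threshold (-1.87 ± 0.81, edgeR adjusted p = 0.094). All 3 genes overlapped between the groups, and without tumor WT replicate 2 their differences were -0.91, -0.69 and -0.04. Col3a1 and Col5a2 lie tail to tail on chromosome 1, with 24614 bases between them.

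**Figure D4:**
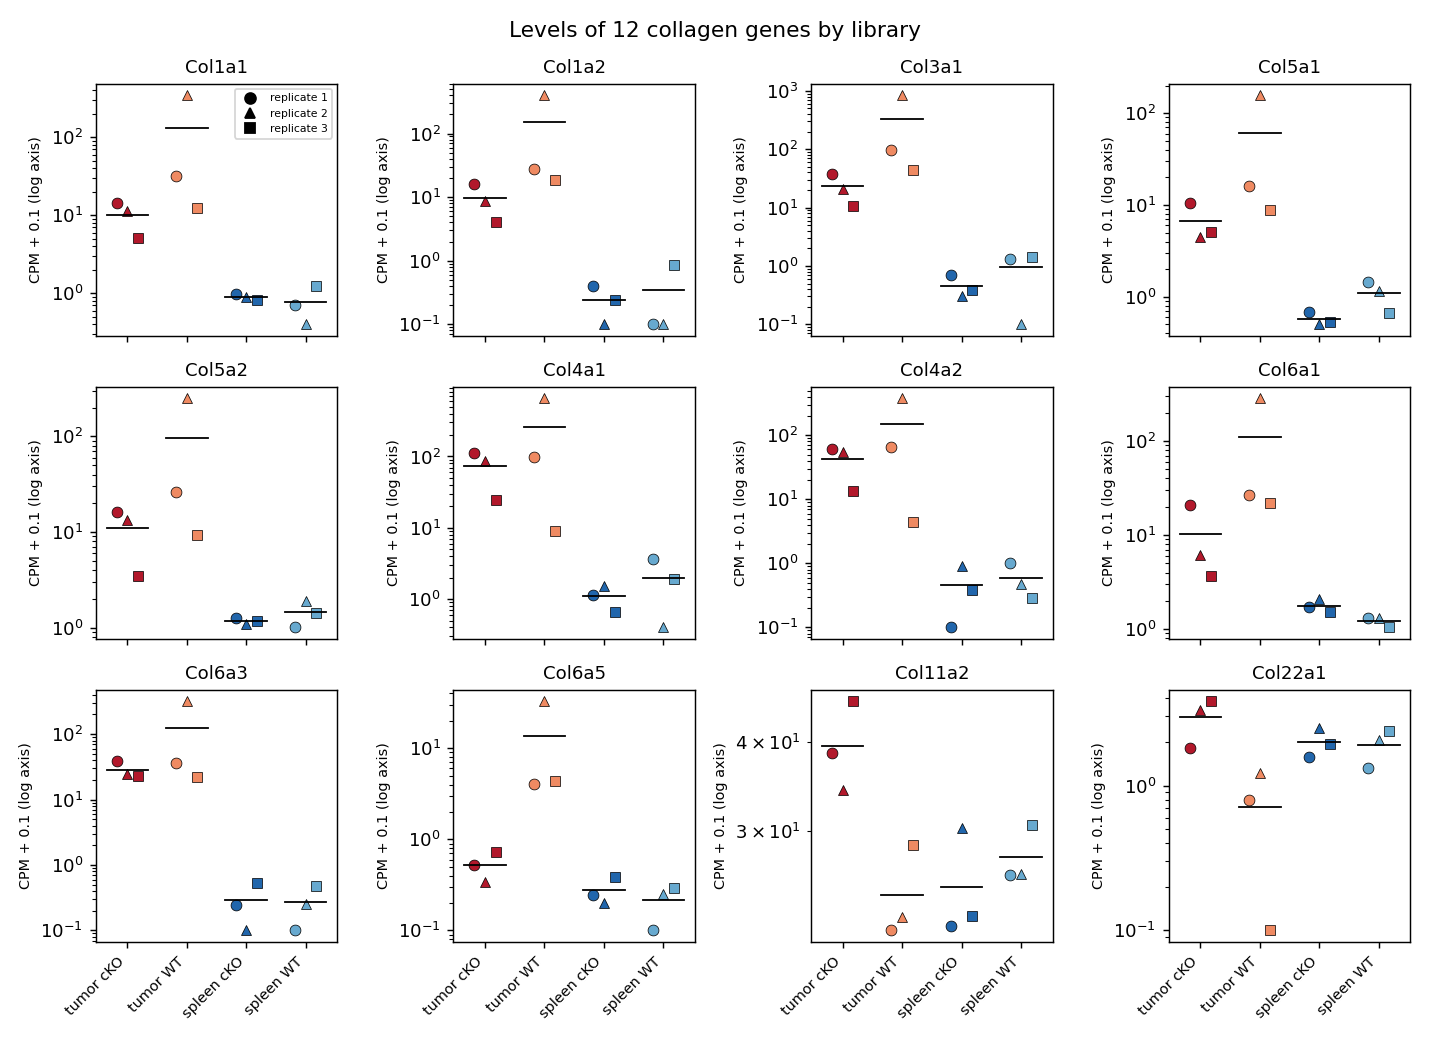
CPM + 0.1 (log axis) of 12 collagen genes in each library, in tumor cKO, tumor WT, spleen cKO and spleen WT from left to right; symbols give the replicate and bars the group mean. In most panels tumor WT replicate 2 (triangle) is far above the other tumor libraries, while for Col11a2 and Col22a1 the 3 tumor cKO libraries are above the 3 tumor WT libraries.

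Col11a2 and Col22a1 went the other way. Col11a2 encodes a chain of type XI collagen, a minor fibrillar collagen known from cartilage. Col11a2 was at 38.5, 34.1 and 45.5 CPM in tumor cKO, against 21.7, 22.6 and 28.6 CPM in tumor WT, so that every tumor cKO library was above every tumor WT library (0.70 ± 0.17, edgeR adjusted p = 0.00728). In spleen it was at 22.0, 30.2 and 22.7 CPM in spleen cKO, against 25.9, 26.1 and 30.5 CPM in spleen WT, which overlapped. It was the only fibrillar gene called higher, and its difference without tumor WT replicate 2 was 0.65. It was also higher in tumor cKO than in spleen cKO (0.66 ± 0.18, edgeR adjusted p = 0.00561), and not called between tumor WT and spleen WT (-0.18 ± 0.18, edgeR adjusted p = 0.392).

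Its promoter is shown because Col11a2 was the family's most abundant member in spleen and its call held without each library in turn. The RefSeq window lies at chr17:34038888-34039187, plus strand on GRCm38.p6, with the same motifs in capitals.
Col11a2: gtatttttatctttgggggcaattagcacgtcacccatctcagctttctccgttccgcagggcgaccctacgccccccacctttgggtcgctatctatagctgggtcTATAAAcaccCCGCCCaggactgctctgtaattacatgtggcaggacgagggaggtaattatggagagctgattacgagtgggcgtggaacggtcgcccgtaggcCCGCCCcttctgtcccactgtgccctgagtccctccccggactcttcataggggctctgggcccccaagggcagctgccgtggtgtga
It held 1 TATAAA and 2 GGGCGG. Its RefSeq start, 34039138, lies before the start of the gene in the count table, chromosome 17 from 34039437 to 34066685. No other gene row shares exon bases with Col11a2, and the nearest, Rxrb, ends 1043 bases before it. The cartilage and bone markers summed to 0.555, 0.661 and 0.349 CPM in tumor cKO, against 4.83, 6.91 and 2.83 CPM in tumor WT, and to 0 to 2.61 CPM in spleen. Acan, the aggrecan core protein of cartilage, was at 0, 0.240 and 0 CPM in tumor cKO, against 0, 0.0846 and 0 CPM in tumor WT.

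Col22a1, a fibril-associated collagen of tissue junctions such as those of muscle and tendon, was at 1.71, 3.25 and 3.72 CPM in tumor cKO, against 0.698, 1.13 and 0 CPM in tumor WT (2.17 ± 0.77, edgeR adjusted p = 0.0397). The groups did not overlap, but at these low levels the call was lost when any of 6 libraries was left out, namely tumor cKO replicate 2 or 3, tumor WT replicate 1, spleen cKO replicate 1 or 3, and spleen WT replicate 2. Its difference without tumor WT replicate 2 was 3.02. Col23a1, a transmembrane collagen, was at 1.32, 1.62 and 1.20 CPM in tumor cKO, against 0.116, 2.82 and 0.120 CPM in tumor WT and overlapped (0.35 ± 0.95, edgeR adjusted p = 0.801). Its difference was 3.46 without tumor WT replicate 2 and was then called. It was -0.14 when tumor WT replicate 1 was left out and -0.12 when tumor WT replicate 3 was.

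Among the type VI genes, whose chains assemble into beaded filaments, Col6a5 had the lowest log2 fold change of the 27 genes tested. Only its tumor WT levels carried it through the filter on low counts, so its being tested already favoured a lower value in tumor cKO. Col6a5 was at 0.427, 0.240 and 0.620 CPM in tumor cKO, against 3.95, 32.7 and 4.22 CPM in tumor WT, with all tumor cKO libraries below all tumor WT libraries (-4.94 ± 0.87, edgeR adjusted p = 0.00103). It was still called, at -3.20, when tumor WT replicate 2 was left out (DESeq2 gave it no adjusted p). In spleen Col6a5 was at 0 to 0.284 CPM. It was called higher in tumor WT than in spleen WT (6.89 ± 1.08, edgeR adjusted p = 0.000145) and not called between tumor cKO and spleen cKO (1.23 ± 1.11, edgeR adjusted p = 0.355). Without tumor WT replicate 2 the difference in WT was 5.14, still called.

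The Col6a5 promoter is shown for the same reason as that of Col11a2, the other gene whose call held without each library in turn. The RefSeq window lies at chr9:105960594-105960893, minus strand on GRCm38.p6.
Col6a5: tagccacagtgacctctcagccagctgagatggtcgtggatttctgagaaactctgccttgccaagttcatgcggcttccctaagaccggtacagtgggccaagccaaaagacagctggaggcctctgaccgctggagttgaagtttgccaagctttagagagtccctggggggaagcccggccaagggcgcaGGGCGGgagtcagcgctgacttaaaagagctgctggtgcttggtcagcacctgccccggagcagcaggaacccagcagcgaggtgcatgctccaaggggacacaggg
It held 1 GGGCGG and neither of the other motifs. The gene runs on chromosome 9 from 105856078 to 105960643, in a row of 3 related genes on the minus strand, 27917 bases from Col6a6 and 28810 bases from Col6a4. Col6a6 was at 2.18, 2.04 and 0.581 CPM in tumor cKO, against 0.349, 3.36 and 2.41 CPM in tumor WT and overlapped (-0.37 ± 0.92, edgeR adjusted p = 0.783). Its sign turned to 0.21 without tumor WT replicate 2. Col6a4 did not pass the filter, with 85 reads in all libraries together, 56 of them in tumor WT replicate 2.

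The classical type VI chains were led by tumor WT replicate 2. Col6a1 was at 20.8, 6.01 and 3.56 CPM in tumor cKO, against 26.9, 285 and 21.7 CPM in tumor WT (-3.46 ± 1.02, edgeR adjusted p = 0.0238), and Col6a2 at 15.3, 4.45 and 2.25 CPM in tumor cKO, against 23.6, 242 and 15.3 CPM in tumor WT (-3.67 ± 1.08, edgeR adjusted p = 0.0234). Neither overlapped between the groups, Col6a2 by a margin too small to show at 3 digits. Col6a3 was at 39.4, 24.3 and 22.5 CPM in tumor cKO, against 36.4, 319 and 21.9 CPM in tumor WT and overlapped (-2.13 ± 0.87, edgeR adjusted p = 0.0805). With tumor WT replicate 2 left out the differences were -1.26, -1.40 and -0.02, none called.

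The basement membrane chains did not pass the threshold in tumor. Col4a1 was at 112, 85.9 and 24.2 CPM in tumor cKO, against 99.4, 656 and 8.80 CPM in tumor WT (-1.79 ± 1.15, edgeR adjusted p = 0.25), and Col4a2 at 61.4, 53.8 and 13.3 CPM in tumor cKO, against 64.8, 379.6 and 4.28 CPM in tumor WT (-1.81 ± 1.14, edgeR adjusted p = 0.241). In both genes tumor WT replicate 2 was the highest and tumor WT replicate 3 the lowest of the 6 libraries, so that the tumor WT libraries enclosed the tumor cKO libraries. The sign turned when tumor WT replicate 2 was left out, to 0.45 and 0.31. The multiplexins did not pass the threshold either. Col15a1 was at 16.5, 5.47 and 1.94 CPM in tumor cKO, against 11.2, 195 and 3.62 CPM in tumor WT (-3.14 ± 1.29, edgeR adjusted p = 0.0834). Col18a1, whose C-terminal fragment is endostatin, was at 17.2, 14.1 and 4.996 CPM in tumor cKO, against 19.8, 165 and 1.69 CPM in tumor WT (-2.37 ± 1.15, edgeR adjusted p = 0.134). Both overlapped between the groups, and their differences were 0.11 and 0.17 when that library was left out.

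Col4a1 and Col4a2 lie head to head on chromosome 8, with RefSeq starts 21 bases apart, and their promoters are shown because the windows overlap by 78 bases, chr8:11312777-11312854. The Col4a1 window lies at chr8:11312777-11313076, minus strand, and the Col4a2 window at chr8:11312555-11312854, plus strand, both on GRCm38.p6 and each 5′ to 3′ on its own strand.
Col4a1: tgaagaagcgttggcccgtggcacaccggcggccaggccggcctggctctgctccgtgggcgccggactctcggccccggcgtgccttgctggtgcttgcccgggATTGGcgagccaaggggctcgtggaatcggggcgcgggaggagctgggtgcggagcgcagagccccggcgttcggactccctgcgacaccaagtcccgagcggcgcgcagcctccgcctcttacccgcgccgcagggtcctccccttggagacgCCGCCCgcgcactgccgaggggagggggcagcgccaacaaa
Col4a2: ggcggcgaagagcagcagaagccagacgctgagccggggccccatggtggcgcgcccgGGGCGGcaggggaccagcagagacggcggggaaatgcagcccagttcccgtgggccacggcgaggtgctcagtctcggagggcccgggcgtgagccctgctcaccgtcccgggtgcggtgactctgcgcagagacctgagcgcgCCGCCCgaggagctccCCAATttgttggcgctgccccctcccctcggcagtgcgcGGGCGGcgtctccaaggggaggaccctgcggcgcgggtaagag
The Col4a1 window held 1 CCAAT and 1 GGGCGG, and the Col4a2 window 1 CCAAT and 3 GGGCGG; motifs in the shared bases were counted in both. The 2 genes also share 22 exon bases on opposite strands, 0.295% of the length of Col4a1, and reads there cannot be assigned without strand. In RPKM, Col4a1 over Col4a2 was 1.61, 1.42 and 1.61 in tumor cKO, against 1.36, 1.53 and 1.82 in tumor WT, while Col4a1 itself ranged from 1.06 to 84.0 RPKM over these libraries.

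Over all tumor libraries, ratios between chains of 1 protein varied less than the levels. Without tumor WT replicate 2 this did not hold for every chain. Col6a3 over Col6a1 then ranged from 0.370 to 2.31, Col6a3 from 1.64 to 3.40 RPKM and Col6a1 from 0.846 to 5.56 RPKM. In RPKM, Col1a1 over Col1a2 was 1.67, 2.47 and 2.33 in tumor cKO, against 2.13, 1.63 and 1.25 in tumor WT. Col6a1 over Col6a2 was 2.58, 2.57 and 3.02 in tumor cKO, against 2.16, 2.24 and 2.69 in tumor WT. Col5a1 over Col5a2 was 0.733, 0.366 and 1.67 in tumor cKO, against 0.706, 0.710 and 1.06 in tumor WT. Each of these ratios overlapped between the genotypes. Col6a3 over Col6a1 was 0.695, 1.48 and 2.31 in tumor cKO, against 0.496, 0.409 and 0.370 in tumor WT, higher in every tumor cKO library. Col4a1 over Col3a1, 1 basement membrane gene over 1 fibrillar gene, was 3.84, 5.37 and 2.97 in tumor cKO, against 1.34, 1.02 and 0.262 in tumor WT, again without overlap. The shares of the whole classes overlapped, as given above. With 3 against 3 libraries an exact permutation test cannot give a two-sided p below 0.1, and these ratios, picked after their values were seen, were not tested.

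**Figure D5:**
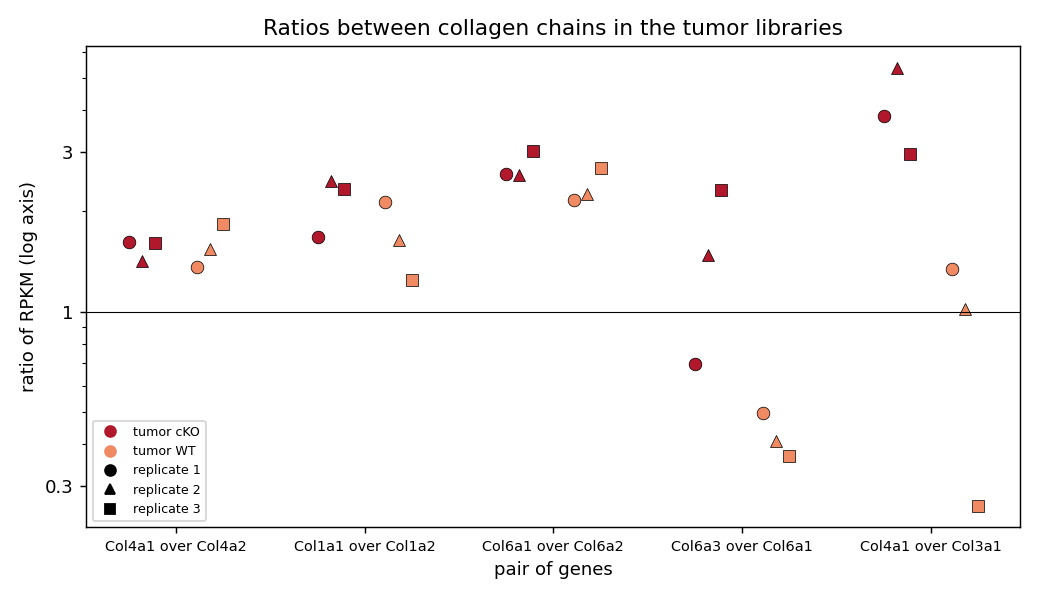
Ratio of RPKM (log axis) between 5 pairs of collagen genes in the 3 tumor cKO and 3 tumor WT libraries, 1 point per library; the line marks a ratio of 1. Col4a1 over Col4a2 stays between 1.36 and 1.82 in all 6 libraries, while Col6a3 over Col6a1 and Col4a1 over Col3a1 are higher in all 3 tumor cKO libraries.

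The remaining fibril-associated genes were mixed. Col12a1, which binds the surface of type I fibres, was at 2.22, 0.722 and 0.852 CPM in tumor cKO, against 4.88, 89.5 and 2.53 CPM in tumor WT (-4.66 ± 1.29, edgeR adjusted p = 0.017). Col16a1, found in skin and cartilage, was at 1.28, 0.842 and 0.426 CPM in tumor cKO, against 2.09, 29.5 and 1.39 CPM in tumor WT (-3.70 ± 0.997, edgeR adjusted p = 0.0124). Neither overlapped, and without tumor WT replicate 2 the differences were -1.53 and -1.03, not called. Col14a1, Col9a3, Col19a1 and Col20a1 were not called, with log2 fold changes of -1.34 ± 0.56, -0.49 ± 0.41, -1.26 ± 1.12 and 0.17 ± 0.38, and without tumor WT replicate 2 of -0.44, -0.65, -1.83 and 0.43. The anchoring fibril gene Col7a1 was at 19.3, 19.2 and 19.7 CPM in tumor cKO, against 25.2, 33.3 and 26.2 CPM in tumor WT, lower in all tumor cKO libraries yet not called (-0.54 ± 0.26, edgeR adjusted p = 0.112), and Col27a1 and Col8a2 were not called either.

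Between tumor cKO and tumor WT, 21.6% of all genes were called lower, and the marker lists differed in their share. With all 12 libraries the 9 macrophage markers were all called lower, as were 4 of 6 pericyte and smooth muscle markers tested, 1 of 9 endothelial, 1 of 7 fibroblast, 2 of 5 epithelial and 7 of 8 NK cell markers. Without tumor WT replicate 2 these counts were 8 of 9, 1 of 6, 1 of 9, 0 of 7, 2 of 5 and 8 of 8. The share of all genes called lower was then 21.2%. Of 6 T cell markers, 3 were called higher in both cases, beside 16.4% and 17.6% of all genes. Their part in the collagen differences was not tested.

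In spleen no collagen gene was called between cKO and WT. The count was 0 of 27, where 0.0297% of all genes tested were called, 0 of 28 where 0.0462% were called with tumor WT replicate 2 left out, and 0 of the 26 to which DESeq2 gave an adjusted p. At an unadjusted p under 0.05 the count was 1, Col14a1, by either tool, where edgeR gave 4.66% of all genes tested. Col14a1, a fibril-associated collagen of soft tissue, was at 3.89, 6.71 and 4.05 CPM in spleen cKO, against 1.59, 2.11 and 2.46 CPM in spleen WT, higher in every spleen cKO library (1.25 ± 0.57, edgeR adjusted p = 1). Col6a1 did not overlap either, at 1.61, 2.005 and 1.42 CPM in spleen cKO, against 1.21, 1.21 and 0.945 CPM in spleen WT (0.55 ± 1.41, edgeR adjusted p = 1). In all, 2 genes were higher and 0 lower in every spleen cKO library than in every spleen WT library, beside 5.94% and 5.43% of all genes tested. The SE in spleen was 2.19 for Col3a1 and 3.44 for Col1a2 on the log2 scale, and 1.28 and 1.57 for the same genes when tumor WT replicate 2, which is part of the same fit, was left out.

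The difference between the knockout effects in tumor and spleen was called for 3 of 27 genes, 1 higher and 2 lower, where 18.3% of all genes tested were called, 7.68% higher and 10.6% lower. Col11a2 differed by 0.84 ± 0.25, edgeR adjusted p = 0.0334, from 0.70 ± 0.17 in tumor and -0.14 ± 0.18 in spleen. Col6a5 differed by -5.66 ± 1.77, edgeR adjusted p = 0.0439, from -4.94 ± 0.87 in tumor and 0.72 ± 1.48 in spleen. Col14a1 differed by -2.59 ± 0.80, edgeR adjusted p = 0.04: it was at 2.65, 1.20 and 0.852 CPM in tumor cKO, against 1.86, 7.56 and 2.41 CPM in tumor WT, beside the spleen levels above, and was called in neither tissue alone. The count was 0 when spleen cKO replicate 1 or 3, spleen WT replicate 2 or 3, or tumor cKO replicate 3 was left out. It was 1 when this was spleen cKO replicate 2, spleen WT replicate 1, or tumor cKO replicate 1 or 2. It was 2, Col11a2 and Col6a5, of 28 tested, when tumor WT replicate 2 was left out, at 0.79 and -3.90, with Col14a1 at -1.68, beside 23.4% of all genes called, 10.6% higher and 12.9% lower. The other 24 genes missed the threshold, with a median over all 27 of -2.13, beside -0.10 over all genes tested. Without tumor WT replicate 2 the median over the 28 was -0.42, beside -0.08.

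The enzymes that build collagen were lower in tumor cKO in part. Of 18 genes for chain modification and folding, 15 were tested, and 8 were called lower and 0 higher, with a median of -0.97, beside 21.6% of all genes called lower and 16.4% called higher. Plod2, a lysyl hydroxylase, was at 0.939, 0.842 and 0.0775 CPM in tumor cKO, against 2.21, 5.98 and 1.45 CPM in tumor WT (-2.41 ± 0.78, edgeR adjusted p = 0.0266). Colgalt2, a collagen galactosyltransferase, differed by -2.56 ± 0.86, and Plod1, another lysyl hydroxylase, by -1.21 ± 0.33. After tumor WT replicate 2 was left out, 6 were called lower, with a median of -0.60, beside 21.2% of all genes called lower. Plod2 was then at -1.58 and not called, and Plod1 at -0.86 and called. The call of Colgalt2 was lost without any single tumor cKO library or tumor WT replicate 3, and that of Plod2 also without tumor cKO replicate 3. In spleen 0 of 15 were called, beside 0.0297% of all genes tested.

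Of 13 genes for procollagen cleavage and crosslinking, 9 were tested and 3 called lower, beside 21.6% of all genes. They were the crosslinking enzyme Loxl2, at 4.27, 2.35 and 0.736 CPM in tumor cKO, against 7.15, 29.4 and 4.76 CPM in tumor WT (-2.50 ± 0.72, edgeR adjusted p = 0.017), the procollagen protease Adamts14, at 3.88, 3.73 and 1.78 CPM in tumor cKO, against 13.8, 9.62 and 10.5 CPM in tumor WT (-1.86 ± 0.26, edgeR adjusted p = 0.000195), and the protease enhancer Pcolce (-1.56 ± 0.57, edgeR adjusted p = 0.0459). The groups overlapped for Pcolce alone of these 3. When tumor WT replicate 2 was left out, only Adamts14 was called, 1 of 9 beside 21.2% of all genes called lower, and Loxl2 stood at -1.28 and Pcolce at -0.64. The call of Loxl2 was also lost without tumor cKO replicate 2 or 3, and that of Pcolce without any single library other than spleen cKO replicate 3 or tumor WT replicate 1. In spleen 0 of 9 were called, beside 0.0297% of all genes tested.

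Collagen receptors were lower in tumor cKO for 6 of 10 tested, of 12 in the list, beside 21.6% of all genes called lower. Itgb1, the integrin chain shared by collagen and other receptors, was at 103, 82.1 and 38.5 CPM in tumor cKO, against 224, 317 and 229.8 CPM in tumor WT (-1.78 ± 0.28, edgeR adjusted p = 0.000592). Its partner Itga1 was at 9.22, 5.59 and 2.25 CPM in tumor cKO, against 21.0, 27.2 and 16.0 CPM in tumor WT (-1.92 ± 0.41, edgeR adjusted p = 0.00295), and Lair1 at 22.6, 16.0 and 6.58 CPM in tumor cKO, against 40.5, 111 and 54.9 CPM in tumor WT (-2.19 ± 0.47, edgeR adjusted p = 0.00353). None of these 3 overlapped. Ddr2, a receptor kinase for fibrillar collagen, differed by -2.64 ± 0.95, Adgrg1, an adhesion receptor that binds type III collagen, by -1.90 ± 0.60, and Itga2 by -1.65 ± 0.44. The calls of Ddr2 and Adgrg1 were lost when tumor WT replicate 2 was left out, at -1.35 and -1.33, and those of Itga1, Itga2, Itgb1 and Lair1 held whichever of the 12 libraries was left out. That of Adgrg1 was also lost without any single tumor cKO library, and that of Ddr2 without tumor cKO replicate 2 or 3 or any single spleen library. Lair1 and Itgb1 are expressed by NK cells and also by macrophages. Of the markers, 7 of 8 for NK cells and 9 of 9 for macrophages were called lower too. The part of either cell type in the receptor differences was not tested. Ddr1, Itga10, Itga11 and Mrc2 were not called, and Gp6 and Oscar were not tested. In spleen 0 of 10 receptors were called, beside 0.0297% of all genes tested.

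Other matrix genes gave 3 lower and 1 higher call among 10 tested, of 14 in the list, beside 21.6% of all genes called lower and 16.4% called higher. Fn1, fibronectin, was at 1281, 1406 and 350 CPM in tumor cKO, against 4826, 9655 and 6372 CPM in tumor WT (-2.78 ± 0.49, edgeR adjusted p = 0.0015). Postn, periostin, was at 2.90, 0.962 and 0.465 CPM in tumor cKO, against 7.44, 114 and 2.89 CPM in tumor WT (-4.84 ± 1.36, edgeR adjusted p = 0.0191), and Fbn1, fibrillin, differed by -3.20 ± 1.05. Fbln1, the matrix protein fibulin, was at 9.69, 8.06 and 8.29 CPM in tumor cKO, against 2.79, 4.80 and 1.69 CPM in tumor WT, higher in all tumor cKO libraries (1.47 ± 0.48, edgeR adjusted p = 0.0316). Fn1 and Fbln1 were called without tumor WT replicate 2, at -2.47 and 1.95, and Postn and Fbn1 were not, at -1.83 and -0.81. The call of Fbln1 was lost without any single other tumor library. Those of Postn and Fbn1 were also lost without tumor cKO replicate 2 or 3, and that of Fbn1 without tumor cKO replicate 1, spleen cKO replicate 1 or 3, or spleen WT replicate 2.

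Between tumor and spleen, 31.7% of all genes were called higher and 28.8% lower in cKO, and 33.9% higher and 28.1% lower in WT. Of the 15 modification and folding genes tested, 9 were called higher and 2 lower in cKO, and 11 higher and 1 lower in WT. Of the 10 receptors tested, 3 were called higher and 2 lower in cKO, and 7 higher and 1 lower in WT. The 10 other matrix genes tested gave 6 higher calls in cKO and 10 in WT, and no lower call. The 9 cleavage and crosslinking genes tested gave 2 higher and 3 lower in cKO, and 5 higher and 1 lower in WT. With tumor WT replicate 2 left out, the cleavage genes gave 5 higher and 4 lower in cKO and 2 higher and 2 lower in WT, and the other matrix genes 10 higher in cKO. Itga2 was at 0.232 to 2.06 CPM in tumor and 29.1 to 44.4 CPM in spleen, and Adamts14 at 1.78 to 13.8 CPM in tumor and 85.4 to 124 CPM in spleen. All 8 NK cell markers were also called lower in tumor in both genotypes, and the part of NK cells in these values was not tested.

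The 16 genes that did not pass the filter had 8 to 292 reads each over all 12 libraries and at most 0.828 CPM in spleen. They were Col2a1, Col11a1 and Col24a1 among fibrillar genes, Col4a3, Col4a4, Col4a5 and Col4a6 of minor basement membrane chains, Col8a1, Col10a1, Col6a4, Col9a1, Col13a1, Col17a1, Col25a1, Col26a1 and Col28a1. Col24a1 had 292 reads, 274 of them in tumor WT replicate 2, where it reached 7.73 CPM. It had 0 reads in spleen, and its level in tumor WT, nearly all from that library, was at least 34.7-fold higher than the floor of 3 counts over the spleen WT group, 0.081 CPM. Col13a1, a transmembrane collagen, had 0 reads in all 6 spleen libraries and was at least 10.7-fold higher in tumor cKO and at least 5.15-fold higher in tumor WT than the floor in spleen of the same genotype. In tumor it was at 1.11, 1.20 and 0.387 CPM in tumor cKO, against 0.233, 0.536 and 0.482 CPM in tumor WT. Among these 16 genes, 5 reached 1 CPM or more in tumor WT replicate 2.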

How the data were processed

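Total RNA was extracted with TRIzol and sequenced on an Illumina instrument, per the labels. Reads were mapped to mm10 (GRCm38) with TopHat2 2.0.6, per the submitters' processing notes. No counting program or strand setting is given in the sources used here. Counts deposited by the authors are whole reads per gene, without normalization, for 33100 rows. The authors also deposited RPKM values, of which 100% matched those computed from the counts within a relative tolerance of 0.001. Between 68.8% and 73.3% of counts from 1 to 49 were even, as when both mates are counted, so counting noise exceeds what the counts imply. Intervals and floors take each count as separate, so they understate this noise and cover no other variation. Coordinates are those of the count table.

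Counts were fitted in R 4.3.3 with edgeR 4.0.16 (filterByExpr over the 4 groups, TMM factors, robust quasi-likelihood F-tests, two-sided, 12 libraries, 1 mean per group, 8 residual degrees of freedom, common dispersion 0.0801), with Benjamini-Hochberg adjustment over all 16831 genes tested. CPM used the TMM-scaled totals. Floors were 3 counts over a group. The script was tested on simulated data. Alternatives used DESeq2 1.42.0, limma 3.58.1 on log2(RPKM + 0.1) and log2(RPKM + 1), other scaling and filters, and fewer libraries. All members were accounted for; named were those with 1 CPM in all 3 libraries of a group or called in any comparison, and from the other lists the called genes with the largest 3 changes in each direction and receptors. The members and lists were chosen with earlier results of these data known. The gene deleted in the cKO is not reported here, and no check of the genotype labels was made on it.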

Additional observations from a re-analysis of the deposited data

Results flagged for a closer look

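The knockout effect differed between tumor and spleen for 3 of 27 collagen genes tested, beside 18.3% of all genes tested. This was by the test of the difference itself, in edgeR's quasi-likelihood fit. Col11a2 differed by 0.84 on the log2 scale, with 38.5, 34.1 and 45.5 CPM in tumor cKO against 21.7, 22.6 and 28.6 CPM in tumor WT, and no called difference in spleen; it was called in 4 of the 12 fits that each left out 1 library. Col14a1 differed by -2.59 and Col6a5 by -5.66, each called in 3 of those 12 fits. For Col6a5, spleen levels were at most 0.284 CPM in all 6 libraries.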

How the results depend on the processing

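The calls in tumor cKO against tumor WT moved with the processing. Against 12 calls of 27 tested, there were 21 of 43 with no filter on low counts and 4 of 26 with the tumor libraries alone. With tumor WT replicate 2 left out together with tumor cKO replicate 3 there were 4 of 28. Limma gave 7 of 27 on log2(RPKM + 0.1) and 5 of 27 on log2(RPKM + 1). Leaving out 1 library gave 3 to 18, with 28 to 30 tested. DESeq2 gave 11 of 30 with an adjusted p, and RLE factors and a stricter filter 12 each. Tumor against spleen gave 22 to 23 calls in WT and 10 to 22 in cKO when leaving out 1 library, with 28 to 30 tested. In cKO limma on log2(RPKM + 1) gave 10 of 27, against 18 of 27. The difference between tissues gave 15 calls of 43 with no filter, 6 of 26 with DESeq2 and 1 of 28 without both libraries, against 3 of 27. It gave 1 of 27 with limma on log2(RPKM + 1) and 0 to 4 when leaving out 1 library. In spleen each alternative gave 0. Of these alternatives, the share of all genes called is given only for leaving out tumor WT replicate 2. The other counts show how the calls moved and not how collagen genes compare with all genes.

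In tumor cKO against tumor WT the sign turned without tumor WT replicate 2 for Col15a1 (0.106), Col18a1 (0.17), Col4a1 (0.452), Col4a2 (0.311) and Col6a6 (0.209). With both libraries left out it turned for these, at 0.578, 0.548, 0.875, 0.744 and 0.62, and for Col27a1 (0.086), Col5a3 (0.212) and Col6a3 (0.137). Col23a1 turned to -0.139 without tumor WT replicate 1 and -0.119 without tumor WT replicate 3, and reached 3.55. Leaving out tumor cKO replicate 3 turned Col6a6 (0.043) and Col8a2 (0.14), leaving out tumor WT replicate 1 turned Col19a1 (0.736) and Col20a1 (-0.079), and leaving out tumor cKO replicate 2 turned Col20a1 (-0.059), which reached 0.428. In spleen Col1a2 turned to 4.583 without spleen WT replicate 3, with a lowest value of -1.336. The lowest values over the libraries left out were -4.267 for Col15a1, -2.922 for Col18a1, -2.341 for Col4a1, -2.363 for Col4a2, -0.88 for Col27a1, -2.483 for Col5a3, -2.61 for Col6a3, -0.855 for Col6a6, -4.572 for Col8a2 and -3.239 for Col19a1. Of 2049 recomputed values for 94 single-gene results, 1763 kept sign and call, 244 lost the call, 21 gained it and 21 turned. The cause was not tested beyond the libraries and genes left out.

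Replicate numbers were not treated as pairs in the main fit. Deviations of same-numbered libraries correlated at -0.088 to 0.111. Differently numbered libraries were not compared, so these values cannot decide whether same-numbered libraries share a mouse or a batch. With the replicate number as a block, 7 of 27 collagen genes were called in tumor cKO against tumor WT. In spleen, collagen reads were 0.008317% to 0.009998% of counts, and the SEs there also moved with tumor WT replicate 2, so that depth and this library were not separated as limits.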
